A study of Mus musculus with 6 samples.

Results

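Translation initiation factors are the proteins that load the initiator tRNA on the small ribosomal subunit, bring that subunit to the capped 5′ end of an mRNA and join the large subunit at the start codon. Their genes were taken here as those whose annotated symbol is Eif followed by a digit, leaving out the Eif2ak kinases, which phosphorylate eIF2 and are regulators rather than factors. Of 18193 genes named by a probe set that is paired with that gene alone, 43 met this rule. Each gene was read from its brightest probe set, and 40 of the 43 were bright enough to be tested, among 10526 genes tested in all.

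The cells were Ba/F3-N, a mouse line of bone marrow origin derived from Ba/F3, an interleukin-3 dependent pro-B line, and transformed with the oncogenic G12D form of NRAS, which both groups carried. One group of 3 samples received 1 µM N-arachidonoyl dopamine (NADA), a lipid in which dopamine is joined to arachidonic acid and which binds TRPV1, the vanilloid channel, as well as cannabinoid receptors, and the other group of 3 samples received an equal volume of vehicle. All cells were collected after 12 hours, and total RNA from each sample was hybridised to an Affymetrix Mouse Genome 430 2.0 array. No label says that the samples of a group came from separate cultures. The p-values thus set the difference between groups against a spread of arrays within a group that may be technical only. RNA came from whole cultures, so a change in the share of cells that hold a transcript and a change in its amount per cell cannot be told apart.

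Initiation begins when eIF2, bound to GTP and the initiator tRNA, joins the small subunit together with eIF1, eIF1A, eIF3 and eIF5. The eIF4F complex, made of the cap-binding protein eIF4E, the helicase eIF4A and the scaffold eIF4G, then recruits this assembly to an mRNA, and 4E-binding proteins hold eIF4E back when the kinase mTORC1 is inactive. After each round eIF2 leaves as a GDP complex that the exchange factor eIF2B recharges, and phosphorylation of eIF2 by the Eif2ak kinases blocks that exchange. In blood cells with oncogenic RAS, MAP kinase and PI3K signalling both act on eIF4E and its binding proteins.

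The promoters below show where a known regulatory motif lies upstream of 5 of these genes, 3 that fell in NADA cells and 2 that rose relative to the bulk of genes. Those 2, Eif3f and Eif3k, were lower when arrays were scaled to control RNAs, as given below. The E-box CACGTG is the site bound by MYC and MAX and by other helix-loop-helix factors, and MYC is known to act on many genes of protein synthesis. The sequences are RefSeq's, from mouse assembly GRCm38.p6, run 5′ to 3′ on the strand of the gene, and cover the 250 bases before and the 50 bases after an annotated gene start. Capitals mark the E-box and, in Eif5a, the ETS motif CCGGAAGT. The E-boxes begin at positions -228 and -64 from the start in Eif4e, -189 in Eif4a1, -178 in Eif5a, -68 in Eif3f and -44 in Eif3k. Eif4e and Eif5a have other annotated starts, whose promoters are counted but not printed.
Eif4e, chr3:138527018-138527317, plus strand: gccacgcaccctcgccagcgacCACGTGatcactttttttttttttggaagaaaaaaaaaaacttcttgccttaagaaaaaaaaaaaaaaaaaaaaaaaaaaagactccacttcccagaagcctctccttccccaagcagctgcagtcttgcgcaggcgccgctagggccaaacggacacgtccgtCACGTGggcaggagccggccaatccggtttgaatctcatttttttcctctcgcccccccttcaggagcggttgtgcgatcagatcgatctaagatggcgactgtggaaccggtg
Eif4a1, chr11:69672374-69672673, minus strand: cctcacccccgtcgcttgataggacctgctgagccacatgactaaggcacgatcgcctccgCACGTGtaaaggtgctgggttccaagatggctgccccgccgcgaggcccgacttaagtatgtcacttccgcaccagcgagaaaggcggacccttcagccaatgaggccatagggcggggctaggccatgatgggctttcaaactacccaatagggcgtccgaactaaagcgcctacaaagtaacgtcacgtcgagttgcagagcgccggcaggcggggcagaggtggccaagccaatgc
Eif5a, chr11:69920581-69920880, minus strand: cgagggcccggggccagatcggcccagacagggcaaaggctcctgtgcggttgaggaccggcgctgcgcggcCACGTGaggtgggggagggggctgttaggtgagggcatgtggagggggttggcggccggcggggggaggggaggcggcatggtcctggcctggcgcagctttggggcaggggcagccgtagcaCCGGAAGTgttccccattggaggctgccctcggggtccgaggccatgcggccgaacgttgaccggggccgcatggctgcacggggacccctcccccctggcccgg
Eif3f, chr7:108934165-108934464, plus strand: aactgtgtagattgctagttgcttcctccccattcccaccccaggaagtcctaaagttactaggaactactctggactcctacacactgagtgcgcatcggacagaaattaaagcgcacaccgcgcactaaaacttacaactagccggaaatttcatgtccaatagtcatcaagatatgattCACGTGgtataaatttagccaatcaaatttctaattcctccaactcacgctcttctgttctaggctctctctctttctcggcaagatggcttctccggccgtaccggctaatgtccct
Eif3k, chr7:28981839-28982138, minus strand: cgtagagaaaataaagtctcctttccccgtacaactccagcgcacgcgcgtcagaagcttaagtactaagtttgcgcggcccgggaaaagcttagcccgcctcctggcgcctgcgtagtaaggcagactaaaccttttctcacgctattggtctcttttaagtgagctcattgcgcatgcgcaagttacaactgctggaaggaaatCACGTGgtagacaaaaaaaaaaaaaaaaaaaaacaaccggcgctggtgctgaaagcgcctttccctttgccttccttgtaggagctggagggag

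RefSeq's promoter table matched 34 of the 43 genes, with 46 promoters. The E-box stood in 11 of these 46 promoters (23.9%), against 7.15% of the 32851 promoters in the table and 10.1% of those of the genes tested. Counted by gene, 9 of the 34 had it (26.5%), namely Eif1b, Eif3a, Eif3f, Eif3k, Eif4a1, Eif4e, Eif4h, Eif5a and Eif5a2, against 12.0% of the 8577 tested genes with a promoter. It was found in 6 of the 23 factor genes that fell (26.1%) and in 2 of the 6 that rose relative to the bulk of genes (33.3%). It thus did not separate the directions in this small set. Among all tested genes it stood in 13.1% of those that fell and in 11.7% of those that rose. The ETS motif was in 9 of the 46 promoters (19.6%), against 3.89% of all promoters and 8.63% of those of the genes tested. By gene it was in 20.6% of the factors and 9.9% of the genes tested. Some promoters of the same gene overlap, so the counts by promoter repeat some sites, while the counts by gene do not. The ETS motif of Eif4e2 at positions 6, 3 and -23 from its annotated starts is the same site. So is the E-box of Eif5a at -185 and -74. The element TGATGNAA, the sequence shared by ATF4 and C/EBP sites, was in 1 of the 46 (2.17%), that of Eif2s3x at position -96, against 3.97% of all promoters and 2.15% of those of the genes tested, so the factors were close to the tested genes. All motifs were searched on both strands, and their letters do not overlap in these promoters. These are matches of letters only, and binding was not measured.

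Relative to the bulk of genes, most initiation factor transcripts were lower in NADA cells than in vehicle cells. Of the 40 tested, 28 fell (70%), against 37.5% of all genes tested, and 8 rose (20%), against 35.8%. With both directions counted, 73.3% of all genes were called. A gene is said here to have risen or fallen where limma gave an adjusted p under 0.05, with adjustment over all 10526 genes. The median log2 fold change was -0.30 over the 40 factors and 0.01 over all genes. NADA and vehicle arrays did not overlap for 7 factors that lay higher and 28 that lay lower, where 75.9% of all genes tested were separated in one direction or the other. A fall of at least 2-fold was seen in 4 factors, Eif2b3, Eif1ad, Eif4e and Eif3b, against 5.99% of all genes, and no factor rose by 2-fold, against 4.86% of all genes. The highest log2 fold change was 0.27, so the rises were small.

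**Figure D1:**
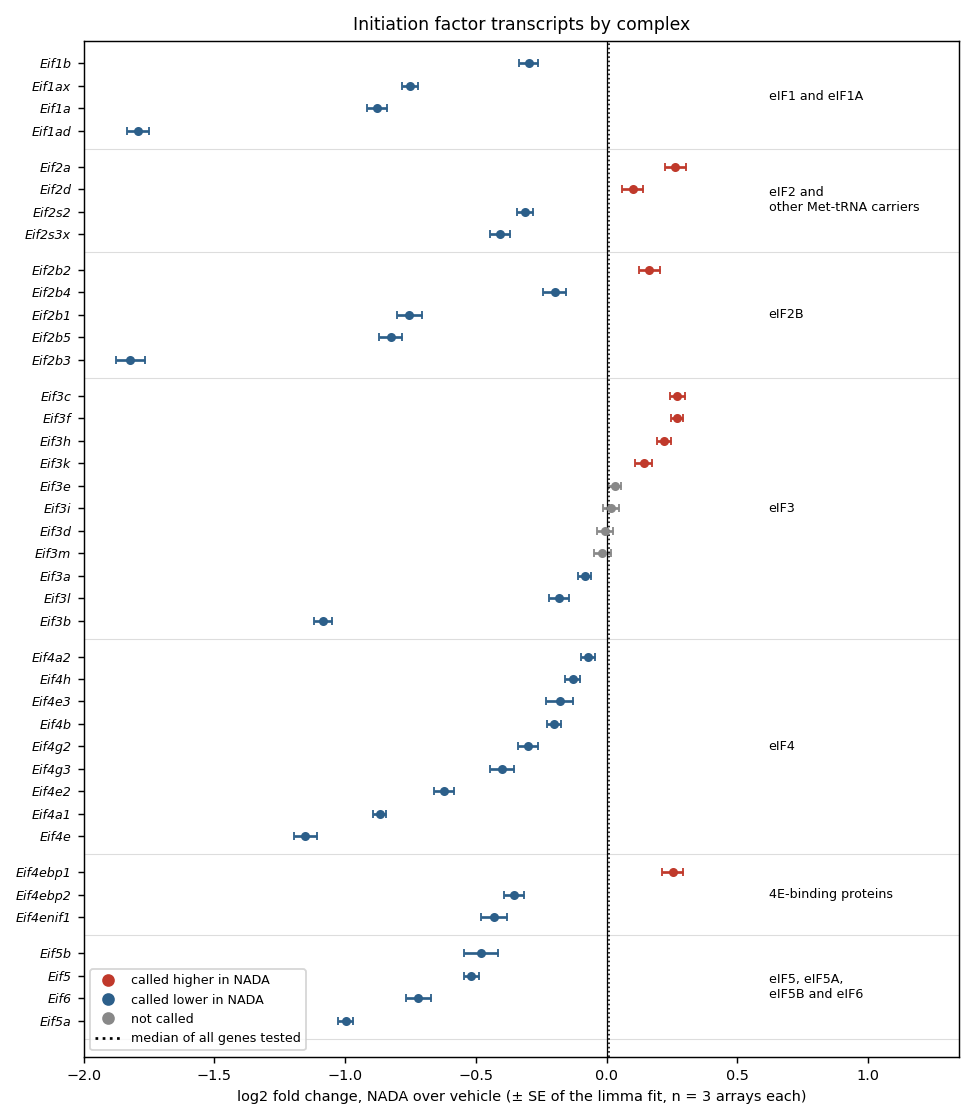
Log2 fold change of each tested initiation factor (NADA over vehicle, horizontal axis), grouped by complex down the page; points are limma estimates, bars their SE with 3 arrays a group, red called higher, blue called lower and grey not called, and the dotted line is the median of all genes tested. The values run from -1.82 for Eif2b3 to 0.27 for Eif3c, and under scaling to the poly-A control RNAs all the red and grey points move below 0.

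The direction of the small rises depended on how the arrays were scaled. Bacterial poly-A control RNAs, which are spiked into the sample RNA, gave a mean log2 signal of 8.72 ± 0.21 on the NADA arrays and 8.14 ± 0.01 on the vehicle arrays (SD, n = 3 each). With arrays scaled to these controls the median over all genes tested was -0.57, and limma called 733 genes higher (6.96%) and 8009 lower (76.1%). The median of the initiation factors then moved to -0.88, with 40 lower and 0 higher, so each factor's rise given above or below holds only relative to the bulk of genes. This scaling shifts all genes of an array by 1 shared amount, which varied between the NADA arrays (SD 0.21). The calls made under it therefore share that error and are not independent of one another. The log2 ratio of the 3′ to the 5′ probe set of Actb, a measure of RNA integrity and labelling, was 1.06 ± 0.05 on NADA arrays and 0.67 ± 0.04 on vehicle arrays. Its part in the results was not tested.

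Marker genes showed the interleukin-3 dependent side of the cells' label in part. The B lymphoid markers were about as dim as those of unrelated cell types. Of 10 B lymphoid marker genes that were named, only Cd79b and Igll1 passed the dim limit, and Pax5, Ebf1, Vpreb1 and Rag1 were below it. The summed intensity of all 10 was 299.7 to 322 on NADA arrays and 271 to 280 on vehicle arrays. Of 9 markers of interleukin-3 dependent progenitors and mast cells, 5 passed, the interleukin-3 receptor genes Il3ra, Csf2rb and Csf2rb2, which were higher in NADA cells (Il3ra not called with poly-A scaling, at -0.06), and Cpa3 and Gata2, which were lower at -0.24 and -0.21. Csf2rb averaged 3337 in NADA cells and 990.0 in vehicle cells, and Csf2rb2 averaged 3574 in NADA cells and 703 in vehicle cells. The sum over all 9 markers, dim ones included, was 9007 to 9293 on NADA arrays and 4088 to 4225 on vehicle arrays. Of 7 T and natural killer cell markers 2 passed, and of 9 fibroblast, epithelial and endothelial markers 3 passed. The sums for T and natural killer cell markers were 219 to 231 in NADA against 208 to 228 in vehicle. For fibroblast, epithelial and endothelial markers they were 284 to 303 in NADA against 306 to 320 in vehicle. The part of these differences in the results was not tested.

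The factors eIF1 and eIF1A keep the scanning ribosome open until it meets a start codon. The 4 genes measured here, both eIF1A genes, Eif1b and Eif1ad, all fell, while the eIF1 gene Eif1 was not analysed here. Their median was -0.81 on the log2 scale (-1.39 with poly-A scaling). Among all genes tested the share that fell was 37.5%, or 76.1% with poly-A scaling. Eif1ad, whose human counterpart is known from small subunit assembly, had intensities of 385, 395 and 365 in NADA cells and 1319, 1347 and 1298 in vehicle cells. All 3 NADA arrays lay far below all vehicle arrays, a log2 fold change of -1.79 ± 0.04 (limma, adjusted p = 2.94e-15). Eif1a, a gene for eIF1A, stood at 918, 922 and 853 in NADA cells and 1669, 1627 and 1648 in vehicle cells, without overlap. Its log2 fold change was -0.88 ± 0.04.

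The X-linked eIF1A gene Eif1ax gave 1520, 1581 and 1611 in NADA cells, against 2629, 2670 and 2632 in vehicle cells (log2 fold change -0.75 ± 0.03). Eif1b, a close relative of eIF1, gave 943, 945 and 954 in NADA cells, against 1201, 1152 and 1143 in vehicle cells. Eif1b moved least of the 4, at -0.30 ± 0.04, and its groups did not overlap.

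Genes for eIF2 and for other carriers of the initiator tRNA differed in direction on their brightest probe sets, though the rise of Eif2d was weak. Both measured eIF2 subunits were lower and both other carriers higher relative to the bulk of genes, though all 4 were lower with poly-A scaling. Over all genes tested, 37.5% were lower and 35.8% higher, and 76.1% were lower with poly-A scaling. Eif2s2, the beta subunit, had 3866, 3981 and 3680 in NADA cells and 4880, 4718 and 4699 in vehicle cells. Eif2s3x, the gamma subunit that binds the tRNA, had 1928, 1944 and 2155 in NADA cells and 2630, 2690 and 2658 in vehicle cells. In each gene the NADA arrays were all below the vehicle arrays, with log2 fold changes of -0.31 ± 0.03 and -0.41 ± 0.04.

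Eif2a, a factor distinct from the eIF2 alpha subunit that can deliver initiator tRNA at unusual start sites, had 791, 737 and 739 in NADA cells and 623, 643 and 622 in vehicle cells. Its groups did not overlap, with a log2 fold change of 0.26 ± 0.04 (-0.31 with poly-A scaling). Eif2d, which acts in ribosome recycling and reinitiation, had 992, 1024 and 939 in NADA cells and 947, 895 and 915 in vehicle cells. The lowest NADA array of Eif2d lay inside the vehicle range, and its change of 0.10 ± 0.04 (limma, adjusted p = 0.0377) lost its call in 4 of the 6 fits that left out 1 array. With median centring its call was lost too, at 0.06 (limma, adjusted p = 0.190). Its other probe sets above the dim limit were not called, at -0.06, 0.005 and 0.05. The alpha subunit gene Eif2s1 was not analysed here, and Eif2s3y, the Y-linked gamma subunit gene, was dim in both groups at 3.88 ± 0.37 in NADA cells and 4.13 ± 0.18 in vehicle cells (SD, n = 3 each).

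The eIF2B complex, the exchange factor that returns eIF2 to its active form, had 4 of its 5 subunit genes lower and Eif2b2 higher. As deposited that is 80% lower, against 37.5% of all genes tested. With poly-A scaling all 5 were lower, where 76.1% of all genes tested were lower too. Eif2b3, the gamma subunit of its catalytic part, gave 152, 175 and 167 in NADA cells and 569, 590 and 583 in vehicle cells. This was the lowest fold change of any initiation factor, at -1.82 ± 0.05 (limma, adjusted p = 5.96e-14), from the only probe set paired with Eif2b3 alone. Eif2b5, the catalytic epsilon subunit, gave 305, 321 and 308 in NADA cells and 565, 539 and 551 in vehicle cells, a log2 fold change of -0.83 ± 0.04 with no overlap.

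The regulatory subunits of eIF2B, which sense eIF2 phosphorylation, did not move alike. Eif2b1, the alpha subunit, gave 379, 366 and 335 in NADA cells and 612, 598 and 610 in vehicle cells, and its log2 fold change was -0.75 ± 0.05. Eif2b4, the delta subunit, gave 640, 659 and 610 in NADA cells and 770, 711 and 710 in vehicle cells, a smaller fall of -0.20 ± 0.04. Eif2b2, the beta subunit, gave 635, 632 and 607 in NADA cells and 572, 543 and 557 in vehicle cells. Its log2 fold change of 0.16 ± 0.04 was -0.41 with poly-A scaling, and its call was lost (adjusted p = 0.117) with its brightest probe set not of type x or s, the types that can bind several transcripts.

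The eIF3 genes stayed closest to the bulk of genes, with a median log2 fold change of 0.02 over 11 subunits (-0.56 with poly-A scaling). This large scaffold on the small subunit joins the 43S assembly to the mRNA. Relative to the bulk of genes 4 subunits rose, Eif3c, Eif3f, Eif3h and Eif3k, and 3 fell, Eif3a, Eif3b and Eif3l, while all 11 were lower with poly-A scaling. The share that rose, 36.4%, was close to the 35.8% of all genes tested, and the share that fell, 27.3%, was under the 37.5% of all genes tested. With poly-A scaling 76.1% of all genes tested were lower. Eif3d, Eif3e, Eif3i and Eif3m were not called, with log2 fold changes from -0.02 to 0.03 and NADA arrays that overlapped the vehicle arrays. Other probe sets of these genes were called, at -0.23 for Eif3i and 0.25 for Eif3e.

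Eif3b departed from the other subunits. It is the scaffold of the module that also holds Eif3i. Its intensities were 730, 758 and 745 in NADA cells, against 1556, 1595 and 1587 in vehicle cells. Every NADA array was under every vehicle array, and the log2 fold change was -1.08 ± 0.03 (limma, adjusted p = 1.01e-13). By brightest probe set Eif3l, a subunit of the PCI/MPN core, was next at -0.18 ± 0.04, and Eif3a, the largest core subunit, differed by little. Eif3a had 5761, 5709 and 5594 in NADA cells and 5996, 6051 and 6032 in vehicle cells, a log2 fold change of -0.08 ± 0.02. Its other probe sets above the dim limit were also called lower, at -0.38, -0.34 and -0.10.

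The 4 eIF3 genes that rose encode parts of the PCI/MPN core, the stretch of subunits built from these structural domains. The core takes in 8 of the 11 measured subunits, and its members Eif3e and Eif3m were not called while Eif3a and Eif3l fell. Eif3c had 5829, 5782 and 5547 in NADA cells and 4775, 4664 and 4774 in vehicle cells, a log2 fold change of 0.27 ± 0.03. Eif3f, an MPN subunit, had 7146, 6984 and 6988 in NADA cells and 5835, 5889 and 5791 in vehicle cells, a log2 fold change of 0.27 ± 0.02. Neither gene's groups overlapped, and with poly-A scaling both were -0.31.

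Eif3h, the other MPN subunit, had 4760, 4775 and 4733 in NADA cells and 4025, 4129 and 4098 in vehicle cells, a log2 fold change of 0.22 ± 0.03 (-0.36 with poly-A scaling). Eif3k, a small subunit at the edge of the core, rose by 0.14 ± 0.03 (-0.44 with poly-A scaling). The subunit gene Eif3g was not analysed here, and Eif3j1 and Eif3j2 were represented only on probe sets paired with several genes.

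**Figure D2:**
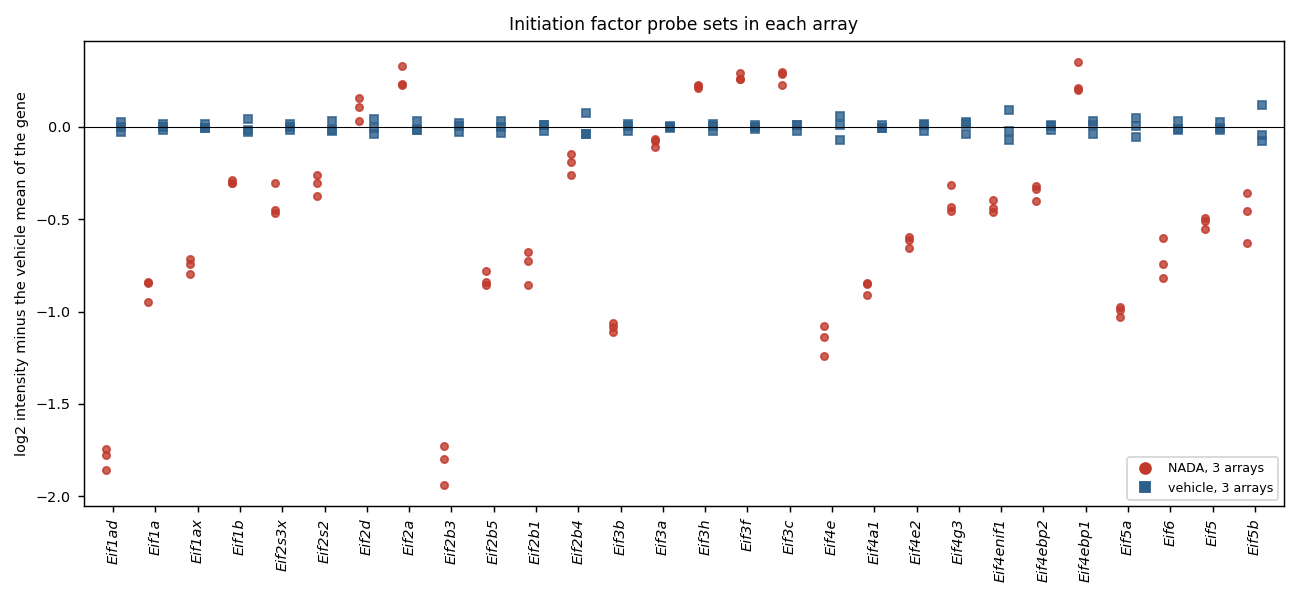
Each array's log2 intensity minus the vehicle mean of the same gene (vertical axis) for 28 initiation factors grouped by complex along the horizontal axis; red circles are the 3 NADA arrays and blue squares the 3 vehicle arrays of the deposited values. The NADA arrays of Eif1ad and Eif2b3 lie lowest, those of Eif3c, Eif3f and Eif3h lie just above 0 and fall below it with poly-A scaling, and Eif2d is the gene whose groups overlap.

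All 9 tested eIF4 genes fell, by log2 fold changes from -1.15 to -0.07 with a median of -0.30 (-0.88 with poly-A scaling). Of all genes tested 37.5% fell, or 76.1% with poly-A scaling. Eif4e, the cap-binding protein on which the recruitment of capped mRNAs turns, gave 912, 979 and 1022 in NADA cells and 2176, 2246 and 2056 in vehicle cells. The highest NADA array was below the lowest vehicle array by a wide margin, and the log2 fold change was -1.15 ± 0.04 (limma, adjusted p = 8.36e-13). Eif4e2, a relative that binds the cap weakly and is known for repressing translation, gave 604, 630 and 622 in NADA cells and 936, 962 and 958 in vehicle cells. Its groups were also apart, at -0.62 ± 0.04. Eif4e3, a further cap-binding relative, fell by 0.18 ± 0.05 on the log2 scale.

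The 2 eIF4A helicases, close in sequence and both able to unwind the 5′ end of mRNAs, differed in size of change. Eif4a1 gave 3691, 3865 and 3839 in NADA cells and 6985, 6903 and 6911 in vehicle cells, a log2 fold change of -0.87 ± 0.03 with no overlap. Eif4a2 gave 2783, 2837 and 2835 in NADA cells and 2932, 2958 and 2998 in vehicle cells. Its change of -0.07 ± 0.03 (limma, adjusted p = 0.0274) lost its call in 4 of the 6 fits that left out 1 array. The helicase cofactors Eif4b and Eif4h fell by 0.20 ± 0.03 and 0.13 ± 0.03. Eif4a3, a core protein of the exon junction complex rather than of initiation, was dim here at 13.9 ± 0.66 in NADA cells and 14.4 ± 2.5 in vehicle cells (SD, n = 3 each), on a probe set that is not its brightest because the brighter one is paired with a second gene.

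Among the eIF4G scaffolds, Eif4g3 gave 543, 598 and 550 in NADA cells and 756, 724 and 750.3 in vehicle cells, a log2 fold change of -0.40 ± 0.04. Eif4g2, a relative without an eIF4E-binding site that serves cap-independent initiation, gave 7018, 7415 and 8023 in NADA cells and 8964, 9068 and 9612 in vehicle cells. The groups of both genes were separate, and Eif4g2 changed by -0.30 ± 0.04 on its brightest probe set, which is of type s. Its other probe sets above the dim limit were called lower by more, at -1.02, -0.66 and -0.40. The main scaffold gene Eif4g1 was not analysed here.

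The genes of the 4E-binding proteins moved apart on their brightest probe sets. Eif4ebp1 was higher relative to the bulk of genes but lower with poly-A scaling, and Eif4ebp2 and Eif4enif1 were lower on both scales. That is 33.3% higher and 66.7% lower as deposited, against 35.8% and 37.5% of all genes tested. Eif4ebp1, which blocks eIF4E unless mTORC1 phosphorylates it, gave 1868, 1856 and 2064 in NADA cells and 1652, 1626 and 1573 in vehicle cells. The NADA arrays were all higher, at a log2 fold change of 0.25 ± 0.04 (-0.32 with poly-A scaling; limma, adjusted p = 3.10e-05 as deposited). Its 2 other probe sets above the dim limit were not called, at 0.09 and 0.11.

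Eif4ebp2, a second mTORC1-controlled inhibitor, gave 851, 842 and 804 in NADA cells and 1072, 1067 and 1052 in vehicle cells, a log2 fold change of -0.35 ± 0.04. Of its 4 probe sets above the dim limit only 2 were called lower, and the others were not called, at -0.13 and 0.04. Eif4enif1, which carries eIF4E into the nucleus and into P-bodies, gave 369, 386 and 374 in NADA cells and 541, 483 and 499 in vehicle cells, at -0.43 ± 0.05. The groups of both genes did not overlap. Eif4ebp3 was represented only on a probe set paired with several genes.

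Ratios between factors in the same array do not depend on the scale of the array, so they hold under poly-A scaling as well. They were taken from the brightest probe set of each gene only. The ratio of Eif4ebp1 to Eif4e, relative to its vehicle mean on the log2 scale, was 1.45, 1.34 and 1.43 in NADA cells and 0.02, -0.05 and 0.03 in vehicle cells. All NADA arrays were above all vehicle arrays, a difference of 1.41 (SD 0.06 in NADA and 0.04 in vehicle, n = 3 each). The ratio of Eif4ebp2 to Eif4e was 0.92, 0.80 and 0.67 in NADA cells and 0.00, -0.05 and 0.05 in vehicle cells, a difference of 0.80.

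The ratio of Eif4a2 to Eif4a1 was 0.82, 0.78 and 0.79 in NADA cells and -0.03, 0.00 and 0.02 in vehicle cells, again a difference of 0.80. The ratio of Eif4e2 to Eif4e differed by 0.53. Each of these 4 pairs was tested by a two-sided exact permutation of the 6 arrays and gave p = 0.1, adjusted p = 0.1 over the 4 pairs. This is the smallest p that 3 arrays against 3 allow, so the design could not reach the 0.05 threshold for any pair. These ratios compare changes of transcripts, not amounts of one factor against another.

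**Figure D3:**
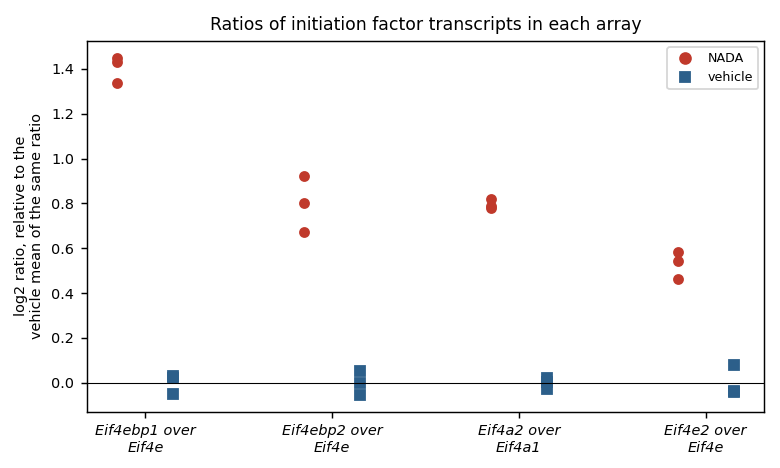
Log2 ratio between the intensities of paired initiation factor genes in each array, relative to the vehicle mean of the same ratio (vertical axis), for 4 pairs along the horizontal axis; red circles are the 3 NADA arrays and blue squares the 3 vehicle arrays. The NADA arrays lie above the vehicle arrays for each pair, by 1.41 for Eif4ebp1 over Eif4e and by 0.53 for Eif4e2 over Eif4e.

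The late-acting factor genes Eif5, Eif5b and Eif6, whose products trigger GTP hydrolysis, join the subunits or keep them apart, fell, as did Eif5a. The median over these 4 genes was -0.62 on the log2 scale (-1.20 with poly-A scaling). Among all genes tested 37.5% fell, or 76.1% with poly-A scaling. Eif5a, the hypusine-bearing factor that eases peptide bond formation and termination, gave 5240, 5438 and 5377 in NADA cells and 10300.2, 11046 and 10721 in vehicle cells. The NADA arrays fell by 49.9%, a log2 fold change of -0.998 ± 0.03 with no overlap (limma, adjusted p = 2.46e-14). Eif6, which keeps the large subunit from joining too early, gave 720.2, 653 and 620.3 in NADA cells and 1083, 1116 and 1080.0 in vehicle cells, a change of -0.72 ± 0.05.

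Eif5, which makes eIF2 hydrolyse its GTP, gave 2375, 2346 and 2280.4 in NADA cells and 3397, 3323 and 3300.0 in vehicle cells, a log2 fold change of -0.52 ± 0.03. Eif5b, the GTPase of subunit joining, gave 458, 428 and 380.5 in NADA cells and 638, 557 and 570.2 in vehicle cells. None of these groups overlapped, and Eif5b changed by -0.48 ± 0.06. Eif5a2, the relative of Eif5a, was dim at 15.7 in NADA cells and 15.6 in vehicle cells on average and was not tested.

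The other probe sets of the same genes mostly moved the same way as the brightest. Of 26 factors with more than 1 probe set above the dim limit, 14 had all of them called in one direction, and 1, Eif4e, had probe sets called in both. The others held at least 1 probe set that was not called. A probe set of Eif4e other than its brightest had 126, 112 and 115 in NADA cells and 60.1, 56.1 and 62.2 in vehicle cells, a log2 fold change of 0.98 ± 0.07. The other 3 probe sets of Eif4e, the brightest included, changed by -1.23, -1.15 and -0.71. Which transcripts the rising probe set binds was not tested. The second probe set of Eif5a changed by -1.66, more than the brightest, and those of Eif2s2 ranged from -1.24 to -0.26. Eif2b3 and Eif3b, which fell by at least 2-fold, each had only 1 probe set paired with that gene alone.

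**Figure D4:**
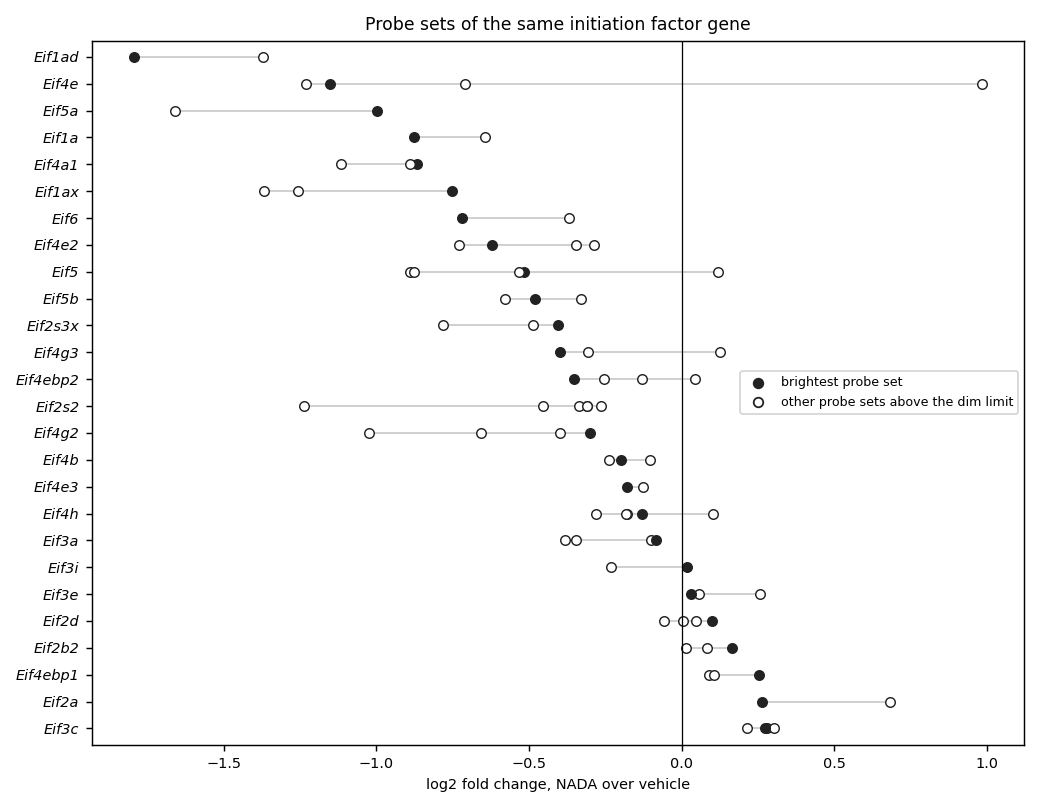
Log2 fold change (NADA over vehicle, horizontal axis) of every probe set above the dim limit for the 26 initiation factors that have more than 1, in the order of the brightest down the page; filled circles are the brightest probe set and open circles the others. Eif4e has 3 probe sets from -1.23 to -0.71 and 1 at 0.98, as deposited.

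Genes that act on the initiation factors were set beside them from lists drawn up by role. The kinases and phosphatases of eIF2 with the ATF4 branch had 9 of 12 genes higher and 2 lower, with a median log2 fold change of 0.70, and with poly-A scaling 6 were higher, 5 lower and the median was 0.12. As deposited that is 75% higher and 16.7% lower, against 35.8% and 37.5% of all genes tested. Ddit3, the transcription factor CHOP, rose by 2.67 ± 0.05, and Trib3, a pseudokinase of the same response, by 2.32. Impact, which restrains the eIF2 kinase GCN2, rose by 1.76, and Ppp1r15a, which directs a phosphatase to eIF2, by 1.33. The 2 that fell were Ppp1r15b, the other gene of that role, at -0.74 ± 0.04, and Gcn1, an activator of GCN2, at -0.81 ± 0.08. Of the eIF2 kinases themselves, Eif2ak3 (PERK) rose by 1.03 and Eif2ak2 (PKR) by 1.02 (0.45 and 0.44 with poly-A scaling), and Eif2ak1 (HRI) was 0.38 as deposited and -0.20 with poly-A scaling. Eif2ak4 (GCN2) was not called at 0.11 ± 0.06 as deposited (limma, adjusted p = 0.0990), but was called lower at -0.47 with poly-A scaling and higher at 0.14 with quantile normalization (limma, adjusted p = 0.0367). Atf4 was 0.16 as deposited and -0.42 with poly-A scaling.

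The kinases and regulators of the mTORC1 and MNK pathways that act on eIF4 proteins had 8 of 17 genes higher and 3 lower, with a median of 0.07 (-0.51 with poly-A scaling, 2 higher and 11 lower). That is 47.1% higher, against 35.8% of all genes tested, and 17.6% lower, against 37.5%, and the median with poly-A scaling was near the -0.57 of all genes. Pdcd4, which binds eIF4A and blocks its helicase activity, rose by 1.74 ± 0.03. Mknk1, a kinase that phosphorylates eIF4E, rose by 0.86 (0.29 with poly-A scaling), and its relative Mknk2 was 0.13 as deposited and -0.45 with poly-A scaling. The mTORC1 inhibitor genes Sesn2 and Sesn1 rose by 0.63 and 0.56, and with poly-A scaling Sesn2 was not called at 0.05 and Sesn1 stood at -0.016.

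Cofactors at the cap, the poly(A) tail and the start site had 14 of 19 genes lower and 3 higher, with a median of -0.58 (-1.16 with poly-A scaling, 17 lower and 0 higher). As deposited 73.7% were lower and 15.8% higher, against 37.5% and 35.8% of all genes tested. Bzw2, a regulator that competes with eIF5, was lowest at -1.40 ± 0.04, followed by the ribosome recycling ATPase Abce1 at -1.29. Larp1, which binds mRNAs of the translation machinery, changed by -1.12 and Denr, a reinitiation factor, by -0.94.

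Elongation factors and their modifying enzymes had 8 of 13 genes lower and 3 higher, with a median of -0.55, and all 13 were lower with poly-A scaling (median -1.13). As deposited 61.5% were lower and 23.1% higher, against 37.5% and 35.8% of all genes tested. Eef1e1, an auxiliary protein of the tRNA synthetase complex, changed by -1.52 ± 0.04, the selenocysteine elongation factor Eefsec by -1.29 and the exchange factor subunit Eef1d by -0.55. Dhps, the first enzyme of the hypusine modification that Eif5a needs, changed by -0.64, and Dohh, the enzyme that completes it, by -0.62; Dohh was named after its value was seen. Eef2k, the kinase that slows elongation, was 0.20 as deposited and -0.38 with poly-A scaling.

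Genes of termination and ribosome rescue had 6 of 9 lower and 3 higher, with a median of -0.33 (-0.91 with poly-A scaling, 8 lower and 1 higher). The 33.3% higher was close to the 35.8% of all genes tested, and 66.7% were lower, against 37.5%. The release factor gene Gspt1 changed by -0.99 ± 0.03, its partner Etf1 by -0.57 and the translational GTPase gene Gtpbp1 by -0.72. Gtpbp2, a rescue factor for stalled ribosomes, rose by 1.11 ± 0.04.

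**Figure D5:**
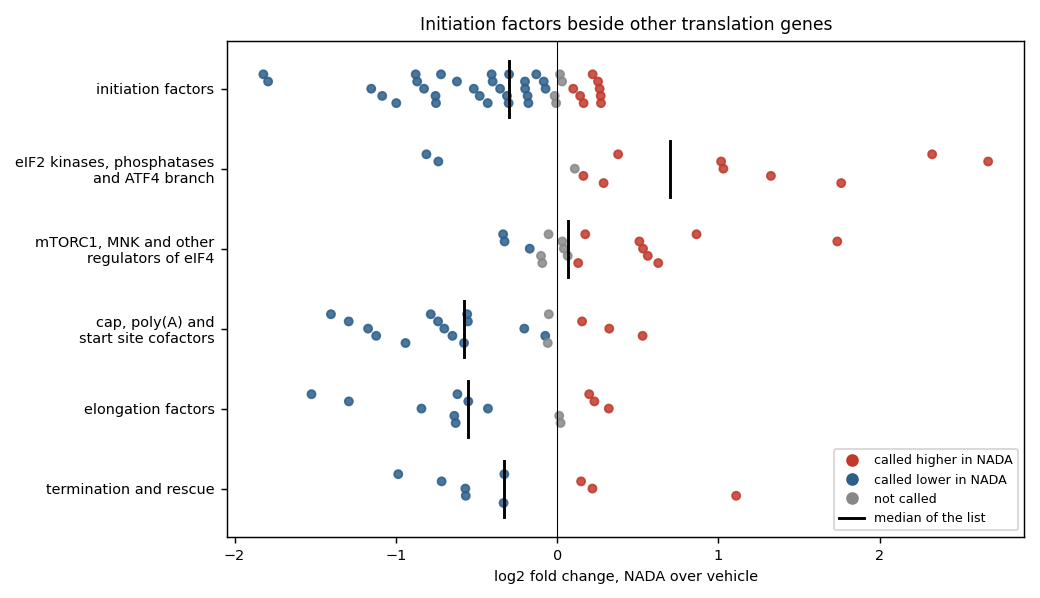
Log2 fold change (NADA over vehicle, horizontal axis) of each tested gene in the initiation factor set and 5 other lists of translation genes, 1 list a row, with red called higher, blue called lower, grey not called and a black bar at the median of each list. The medians as deposited are -0.30 for initiation factors and 0.70 for eIF2 kinases, phosphatases and the ATF4 branch, and with poly-A scaling they are -0.88 and 0.12.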

How the data were processed

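RNA of 3 NADA and 3 vehicle samples was measured on 1 array each, and groups were taken from the sample titles. The authors deposited linear intensities of 45101 probe sets per array, without detection calls. The submitters' processing notes name MAS5 and RMA, with no version or role. Array medians of the deposited intensities were 38.9 to 39.1 in NADA and 37.9 to 38.1 in vehicle, so the values were taken as normalized between arrays, and log2 was taken without further scaling. Arrays correlated at 0.9972 to 0.9984 within groups. Precision is limited by the number of arrays.

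Of 45037 non-control probe sets, the platform annotation gave 1 gene to 34945, several to 932 and none in the table used to 9160, and only the first kind was named. Probe sets under a mean intensity of 38.64, the median, were left out as dim, and the brightest per gene was kept. limma 3.58.1 in R 4.3.3 (lmFit, eBayes with intensity trend, group only, two-sided) compared NADA with vehicle, with Benjamini-Hochberg adjustment over 10526 genes. Each log2 fold change carries, after the sign ±, its standard error from that fit with 3 arrays a group. Of 43 factors, 3 were dim and have no test.

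The members, the gene lists and the tests were chosen with earlier results of these data known. Values in every array are given for up to 4 factors of each group with the smallest p and for Eif4e, Eif4a1, Eif4ebp1, Eif4ebp2, Eif2b5, Eif3a and Eif5a. Up to 4 genes of each other list are named by smallest p, together with the eIF2 kinases, Ppp1r15a, Atf4, Mknk1, Mknk2, Pdcd4 and Eef2k. Factors outside this choice are named to account for every member. Ppp1r15b and Gcn1 were named after their values were seen. Poly-A scaling subtracted each array's mean log2 signal of the Dap, Lys, Phe and Thr controls. Other alternatives were quantile normalization, median centring, a floor of 50 or 32 added before log2, no trend, array weights, a dim limit at the 70th percentile or none, other joinings of probe sets, an adjusted p under 0.01, a minimum of 1.5-fold, each array left out in turn and a replicate block. The steps were tested on simulated data. Plots were drawn with matplotlib 3.10.9.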

Additional observations from a re-analysis of the deposited data

How the results depend on the processing

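The counts of factors that rose and fell kept within 1.5 times of 8 and 28 under every alternative run except poly-A scaling and the 1.5-fold minimum. With poly-A scaling 733 genes were higher and 8009 lower, 0 factors were higher, and eIF3 had 11 lower and 0 higher. Called values that turned negative with it were Eif2a -0.31, Eif2b2 -0.41, Eif2d -0.48, Eif3c -0.31, Eif3f -0.31, Eif3h -0.36, Eif3k -0.44, Eif4ebp1 -0.32, Sesn1 -0.016, Eif2ak1 -0.20, Atf4 -0.42, Mknk2 -0.45 and Eef2k -0.38. Values above 0 that were not called as deposited and were called lower with it were Eif2ak4 -0.47, Eif3e -0.55 and Eif3i -0.56. With a 1.5-fold minimum 3031 of all genes tested were called (all genes tested, higher 1369; all genes tested, lower 1662), leaving 0 factors higher and 12 lower, 1 eIF3 gene lower and 0 higher, 3 eIF4 genes and 0 4E-binding protein genes lower, since that rule drops small changes. The median over factors was -0.24 with quantile normalization, -0.88 with poly-A scaling, -0.34 with median centring, -0.20 with no dim filter, -0.21 with the mean of all probe sets, and -0.31 to -0.28 with each array left out. Mknk2 was -0.039 with the mean of all probe sets, and Eef2k -0.030 with the brightest probe set not of type x or s. With no dim filter the median also took in the dim factors Eif2s3y, Eif4a3 and Eif5a2, which differed by -0.09, -0.04 and -0.01. The cause of the other moves was not tested. Eif2d and Eif4a2 were the calls most often lost, each in 4 of 6 fits without 1 array. With the replicate number as a block 7742 genes were called, with 8 factors higher and 28 lower, and no named gene changed its call. Same-numbered arrays deviated together by correlations of 0.16, -0.10 and 0.02, against up to 0.19 for differently numbered arrays. The labels do not say whether samples of the same number were handled together, and these values cannot decide it. The planned pairs with Eif4g1, Eif2s1 and Eif5a2 were not run.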

Other observations

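RefSeq places small nucleolar RNA genes inside 5 of the initiation factor genes, 3 inside Eif4a1, 5 inside Eif4a2, 1 inside Eif3a (Snora19), 1 inside Eif4g2 and 1 inside Eif5 (Snora28). By brightest probe set the host transcripts changed by -0.87 ± 0.03 for Eif4a1, -0.07 ± 0.03 for Eif4a2, -0.08 ± 0.02 for Eif3a, -0.30 ± 0.04 for Eif4g2 and -0.52 ± 0.03 for Eif5 (log2 fold change, NADA over vehicle). The small nucleolar RNAs themselves were not analysed here.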
